A study of Homo sapiens with 8 samples.

Results

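The actin cytoskeleton and the integrin adhesions that anchor it were followed through 52 genes in IMR90 fibroblasts, a line of primary human embryonic lung fibroblasts, after exposure to medium from cells entering senescence. The members were picked by symbol for their known roles, and a mean level of at least 1 CPM, counts scaled to a common library total, over the 4 groups was required. All 52 met it, among 27696 genes in the count table, and all 52 were among the 13798 genes abundant enough to be tested. The medium came from a separate culture, IMR90-ER:RAS fibroblasts, which carry a RAS oncogene fused to the estrogen receptor and enter senescence when 4-hydroxytamoxifen (4-OHT) switches the fusion on. It was collected at day 0, 4, 7 or 10 of 4-OHT, and the recipient IMR90 cells, which carry no RAS construct, were kept in it for 3 days. Groups carry the donors' day as their name (D0, D4, D7, D10), so D0 cells received medium of uninduced donors. Each group has 2 libraries, 1 from each of 2 independent experiments, or 8 in all. The study set out to learn how the secretions of senescent cells act on the contractile, myofibroblast-like state of normal fibroblasts.

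Actin filaments grow from monomers under the control of formins, profilin, cofilin and VASP, are bundled by alpha-actinins and filamins, and are pulled on by non-muscle myosin II. Bundles end at focal adhesions, where talin, kindlin and the ILK, PINCH and parvin complex tie them to integrins, pairs of an alpha and a beta subunit that bind the matrix outside. Fibroblasts rely on this chain to contract and to stiffen tissue, and many of its genes are known targets of serum response factor (SRF), which is itself regulated by free actin and binds the CArG box.

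Of the 52 members, 47 matched a RefSeq promoter (GRCh38.p14), and 250 bases before the start were searched on both strands. The CArG box, which is CC, then 6 bases of A or T, then GG, was found in 4 of them (8.51%) and in 1.16% of all 35116 promoters. The 4 sites are shown with 10 bases on either side because SRF is the factor most closely tied to actin. Capitals mark the box, all 4 genes lie on the minus strand, and each site reads 5′ to 3′ on it.
ACTG1, chr17:81512874-81512903: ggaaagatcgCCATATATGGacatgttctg
MYLK, chr3:123620623-123620652: ataaaccatcCCTTTTATGGgagttgaagc
FLNA, chrX:154374709-154374738: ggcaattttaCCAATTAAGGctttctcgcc
ROCK2, chr2:11345491-11345520: aaatgtacttCCTTAAATGGgtttactggg
In ACTG1, MYLK and FLNA the box began 94 bases before the RefSeq start, and in ROCK2 73 bases before it. GENCODE 29 starts a longer transcript upstream of the site in ACTG1, MYLK and ROCK2, so that 18 and 30 of these bases are exonic in ACTG1 and MYLK, and 0 in ROCK2 and FLNA. MYLK spans chr3:123610049-123884331, so its site lies inside the gene, near the 3′ end. The window searched there is thus not the one before the outermost start of MYLK. The TEAD motif GGAATG was in 8 of the 47 promoters (17%, all promoters 11.9%), and the AP-1 motif TGANTCA in 1 (2.13%, all promoters 6.57%).

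The 3 members with the steepest differences at D10, LMCD1, CSRP2 and ITGA2, held none of these motifs in the 250 bases. For each, 120 bases up to the first start annotated by RefSeq or GENCODE are shown, 5′ to 3′ on the strand of the gene.
LMCD1, chr3:8501587-8501706, plus strand: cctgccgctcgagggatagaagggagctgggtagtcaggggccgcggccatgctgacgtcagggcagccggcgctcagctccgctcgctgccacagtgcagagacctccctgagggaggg
CSRP2, chr12:76879061-76879180, minus strand: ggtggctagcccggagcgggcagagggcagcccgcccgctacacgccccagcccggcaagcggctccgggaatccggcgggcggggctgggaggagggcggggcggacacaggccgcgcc
ITGA2, chr5:52989206-52989325, plus strand: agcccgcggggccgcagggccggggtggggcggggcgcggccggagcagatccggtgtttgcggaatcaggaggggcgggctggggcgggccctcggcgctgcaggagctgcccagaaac

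Libraries held 11708193 to 13395912 counts, and the deviations of libraries from their group means were correlated within an experiment. Markers fit fibroblasts, with 10 of 10 fibroblast genes present, led by COL1A2, and summed levels of 34586 to 44404 CPM at D0. At D10 this sum was 10970 CPM in 1 library and 32910 in the other. Epithelial markers summed to 1.11 to 3.32 CPM and leukocyte markers to 1.59 to 3.65 CPM, with 4 of 6 and 3 of 5 at 10 counts or fewer in every library, whereas the endothelial list, carried by TEK, reached 41.3 to 115 CPM and the smooth muscle list, carried by SMTN, 143 to 274 CPM. In bulk RNA, fewer cells of a type and less RNA per cell cannot be told apart.

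Together the members took up 4.13% and 3.71% of all counts at D0, in experiments 1 and 2, and 3.16% and 2.92% at D10. At D4 the shares were 3.82% and 3.38%, and at D7 3.69% and 3.22%. Every D7 and D10 library was thus below both D0 libraries, with differences of means of -0.463 and -0.874 percentage points. An exact two-sided permutation test, which did not use the pairing by experiment, gave p = 0.333 for each. This is the smallest p that 2 libraries against 2 allow, so the test could not call either day. ACTB, the beta-actin gene, had the highest level for its length, 2602 CPM per kb of its main transcript over all libraries. ACTG1, the gamma-actin gene, followed with 1530.0 and MYL6, a myosin light chain, with 1379 CPM per kb, while LMCD1 was the lowest with 0.681 CPM per kb.

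At D10, 37 of the 39 members that are not integrins were lower than at D0, and 10 of the 13 integrins were higher. Of all 13798 genes tested, 6838 were lower and 6960 higher. The median log2 fold change against D0 was -0.42 for the 39 and 0.10 for the integrins, with 0.00 over all genes tested. Of the 39, 33 were lower in both experiments (84.6%), where 32.3% of all genes were, and for 23 both D10 libraries lay below both D0 libraries (59.0%), where 16.0% of all genes did so. None of the 39 was higher in both experiments. Of the 13 integrins 4 were higher in both, against 31.1% of all genes, and their medians in experiments 1 and 2 were 0.42 and -0.02. Single members seldom passed a test. The quasi-likelihood test of edgeR, with p-values adjusted by Benjamini-Hochberg over all genes, called 0 of the 52 at an adjusted p under 0.05, with 0.290% of all genes called, and 9 members had an unadjusted p under 0.05 (all genes 7.94%). With the experiment added to the model as a replicate block, 6 members were called, against 4.99% of all genes: LMCD1, CSRP2, DIAPH3, FERMT2 and MYL9 fell and ITGA2 rose. By direction these are 5 lower members (all genes 2.45%) and 1 higher (2.54%). DESeq2 called 4 of these 6, without FERMT2 and MYL9, and 2.17% of all genes. The number of members called with the block changed when 1 library at a time was left out. It was lowest without D0 replicate 2 and highest without D10 replicate 1.

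**Figure D1:**
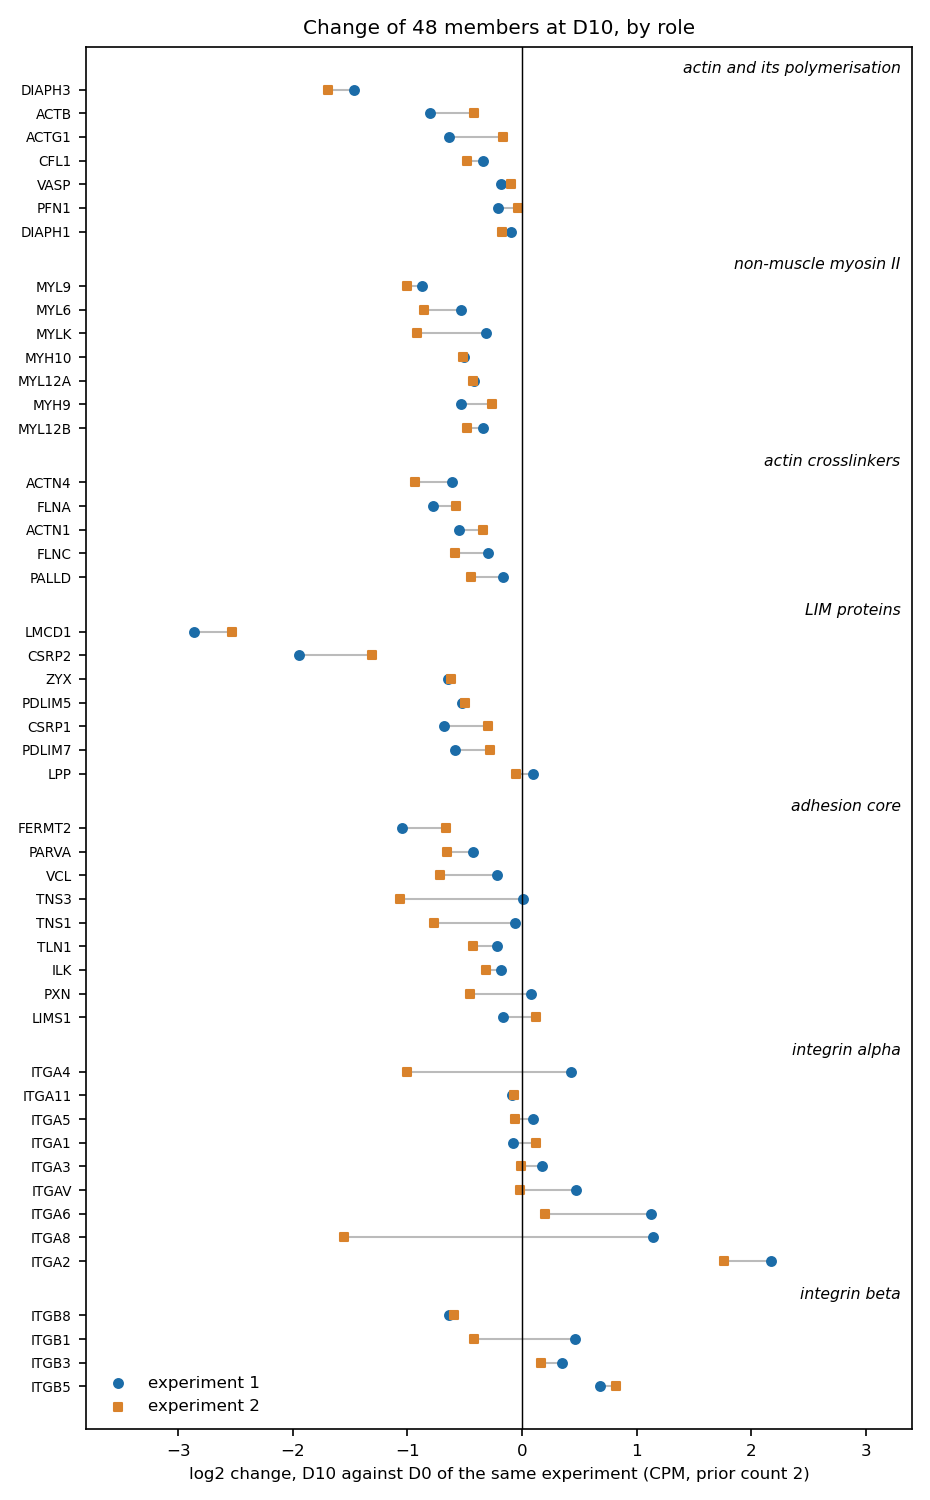
Log2 change of 48 members at D10 against D0 of the same experiment, by role. Circles are experiment 1, squares experiment 2, and a grey line joins them. Most members other than integrins lie left of 0 in both experiments, LMCD1 furthest, while the integrins spread to both sides, with ITGA2 at 2.17 and 1.76.

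The actin genes and the genes of formins, profilin, cofilin and VASP, which control actin filaments, were lower at D10 in both experiments for 7 of 7 members (all genes 32.3%). Their median log2 fold change was -0.39, with values from -1.61 to -0.14. In experiment 1, ACTB stood at 7026 CPM with the D0 medium and 6465, 5313 and 4022 CPM with those of D4, D7 and D10. In experiment 2 the same levels were 5219.7, 4293, 3758 and 3898 CPM, and later pairs of values keep this order of experiments. Both D10 libraries were below both D0 libraries, and the log2 fold change was -0.63 ± 0.36 (SE), but edgeR's adjusted p was 0.862 and 0.225 with the block. For ACTG1, whose site is shown above, the D0 levels of 4533 and 3663 CPM stood above the D10 levels of 2908 and 3265 CPM, a log2 fold change of -0.41 ± 0.32 (SE, edgeR adjusted p = 0.998).

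DIAPH3, a formin that elongates actin filaments (chr13:59665583-60163987, GRCh38, GENCODE 29), was the member of this role that fell with the block. It stood at 14.9 and 18.7 CPM at D0, then 8.69 and 13.7 (D4), 8.86 and 8.81 (D7) and 5.30 and 5.68 (D10). All 6 libraries of the later media lay below both D0 libraries, and both D10 libraries were the lowest. The log2 fold change at D10 was -1.61 ± 0.30 (SE), with an edgeR adjusted p of 0.081, 0.00537 with the block and 0.00188 by DESeq2. The call with the block was lost without D0 replicate 2, where the adjusted p was 0.0749. The formin DIAPH1 had a log2 fold change of -0.14 ± 0.19 (SE, edgeR adjusted p = 0.998). Proliferation genes summed to 153 and 178 CPM at D0, then 173 and 257 (D4), 163 and 225 (D7) and 149 and 141 (D10), and their part in the difference of DIAPH3 was not tested.

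The genes of non-muscle myosin II, the motor of stress fibres, were grouped with MYLK, a kinase of its light chain. All 7 members were lower at D10 in both experiments (all genes 32.3%). For 6 of them both D10 libraries lay below both D0 libraries (all genes 16.0%). The median log2 fold change was -0.51, and the medians within experiments 1 and 2 were -0.51 and -0.51. MYL9, a regulatory light chain whose phosphorylation switches the motor on (chr20:36541484-36551447), had 2366 and 1509 CPM at D0, then 2273 and 1273 (D4), 1739.7 and 993 (D7) and 1291 and 751 (D10). Within each experiment the level was lower with each later medium, while the experiments differed from each other at every day. The log2 fold change was -0.92 ± 0.46 (SE) with an edgeR adjusted p of 0.747, and -0.94 ± 0.19 with the block, adjusted p = 0.0236. That call was lost without either D0 library or either D7 library, where the adjusted p reached 0.407.

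MYL6, the essential light chain, stood at 1699.5 and 1039 CPM at D0 and at 1175 and 574 CPM at D10, so that the groups overlapped. Its log2 fold change was -0.65 ± 0.48 (SE, edgeR adjusted p = 0.998, with the block 0.0805). MYL12B, another regulatory light chain, had the smallest difference of the role, -0.40 ± 0.29, with an edgeR adjusted p of 0.987. It shares 5.86% of its 50-base words with MYL12A, so counts of the pair may be mixed.

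Of the actin crosslinkers 5 of 5 were lower in both experiments (all genes 32.3%), with a median of -0.45. ACTN4, an alpha-actinin, stood at 844 and 679 CPM at D0 and at 553 and 355 CPM at D10, and the groups did not overlap. The log2 fold change was -0.75 ± 0.29 (SE, edgeR adjusted p = 0.53, with the block 0.0696). PALLD, which scaffolds alpha-actinin in stress fibres, was nearest to 0 among these members with -0.30 ± 0.27 (SE, edgeR adjusted p = 0.998). FLNA, which carries a CArG box, had 4127 and 3813 CPM at D0 and 2406 and 2557 CPM at D10. Of the 4 members with a box, which in MYLK lies near the 3′ end of the gene, edgeR called none at D10 with or without the block. ACTG1, MYLK and FLNA were lower at D10 in both experiments and ROCK2 was not.

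**Figure D2:**
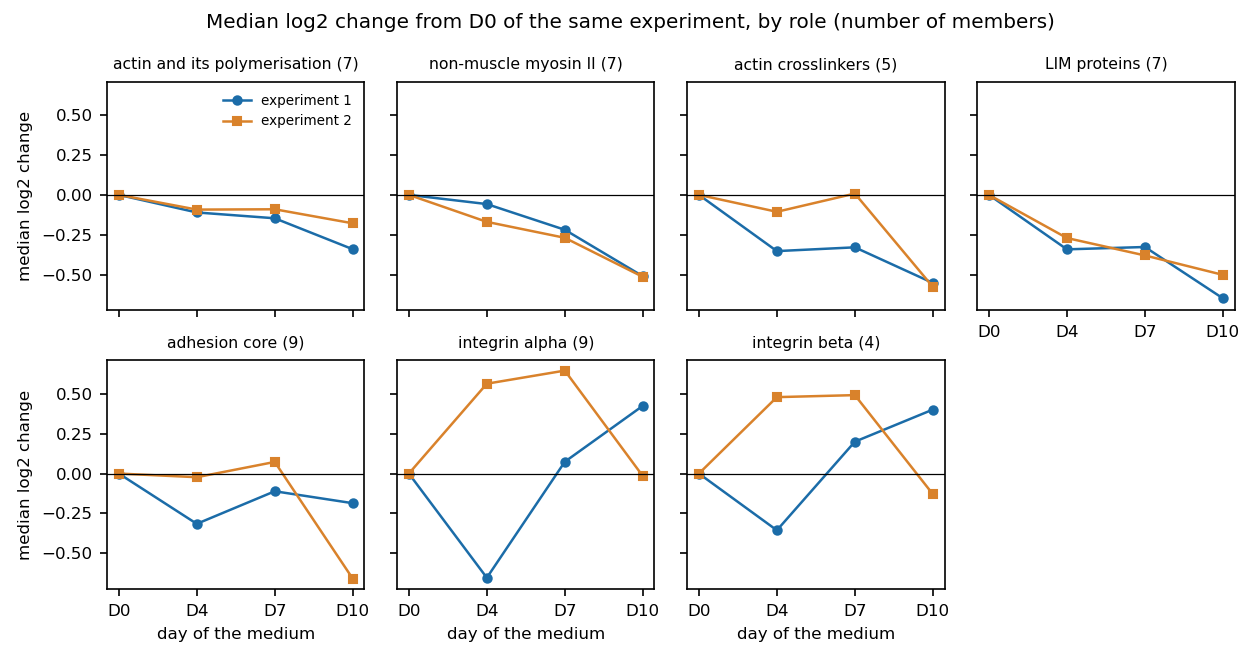
Median log2 change from D0 of the same experiment, by day of the medium, for each of 7 roles (members in brackets). Blue circles are experiment 1 and orange squares experiment 2. The myosin II role, which includes MYLK, reaches -0.51 at D10 in both experiments, whereas the integrin medians of the experiments cross between D7 and D10.

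The LIM proteins, adaptors that sit on actin under tension or at adhesions, included the lowest log2 fold changes of all members. Their median was -0.51, and 6 of 7 were lower in both experiments (all genes 32.3%). LMCD1 (chr3:8501707-8574673), a LIM and cysteine-rich protein that acts as a transcriptional cofactor, stood at 14.2 and 15.8 CPM at D0, then 3.26 and 3.73 (D4), 1.22 and 3.19 (D7) and 1.82 and 2.60 (D10). The 6 libraries of the later media all lay far below both D0 libraries, and most of the difference was present at D4. The counts were 169 and 217 at D0 against 23 and 33 at D10. The log2 fold changes were -2.10 ± 0.44 at D4, -2.76 ± 0.46 at D7 and -2.75 ± 0.46 at D10 (SE). edgeR's adjusted p was 0.757, 0.292 and 0.0675, and with the block 0.0367, 0.00828 and 0.00271. At D4, LMCD1 was the sole member called with the block, where 0.275% of all genes were called, and that call was lost without any 1 of the D0, D4 or D7 libraries.

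CSRP2 (chr12:76858715-76879060), a cysteine and glycine-rich protein of smooth muscle and mesenchymal cells that binds alpha-actinin, was lower with each later medium. It stood at 40.9 and 37.1 CPM at D0, then 23.8 and 28.5 (D4), 17.5 and 20.7 (D7) and 10.5 and 14.9 (D10). No 2 groups overlapped. The log2 fold changes were -0.58 ± 0.25, -1.03 ± 0.25 and -1.62 ± 0.25 (SE), and edgeR's adjusted p at D10 was 0.055, and 0.0026 with the block. At D7 it was 0.419, and 0.0361 with the block. With the block, CSRP2 and LMCD1 stayed called at D10 whichever of the 8 libraries was left out. LPP, a zyxin relative, was at the other end of the role with a log2 fold change of 0.01 ± 0.47 (SE, edgeR adjusted p = 0.999).

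**Figure D3:**
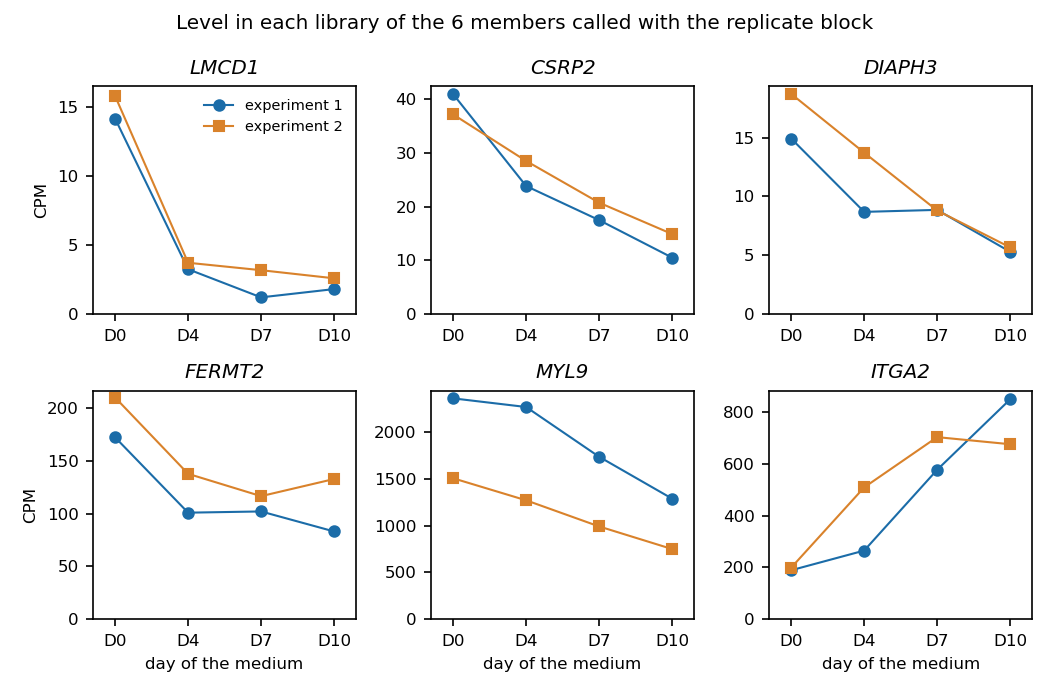
CPM in each of the 8 libraries for the 6 members called at D10 with the replicate block, by day of the medium, on axes that start at 0. Circles are experiment 1 and squares experiment 2. LMCD1 is at 3.73 CPM or lower in every library after D0, CSRP2 and MYL9 are lower with each later medium in both experiments, and ITGA2 is above its D0 levels in every later library.

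Among the proteins of the adhesion core, 9 of 9 had a log2 fold change below 0 at D10 (6838 of all 13798 genes), with a median of -0.35. The medians within experiments 1 and 2 were -0.19 and -0.66. For 3 of the 9 both D10 libraries lay below both D0 libraries (all genes 16.0%). In both experiments 6 were lower (all genes 32.3%). FERMT2, or kindlin-2, which activates integrins together with talin (chr14:52857268-52952435), fell with the block. It had 173 and 210.4 CPM at D0, then 101.0 and 138 (D4), 102 and 117 (D7) and 83.2 and 133 (D10). All 6 later libraries lay below both D0 libraries, and the D4 and D10 ranges overlapped. The log2 fold change at D10 was -0.82 ± 0.29 (SE) with an edgeR adjusted p of 0.435, and -0.85 ± 0.16 with the block, adjusted p = 0.0181. Without either D0 library the call was lost, with an adjusted p of up to 0.187.

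LIMS1, the PINCH adaptor, had a log2 fold change of -0.01 ± 0.35 (SE, edgeR adjusted p = 0.998) and shares 21.1% of its 50-base words, mainly with LIMS3. The tensins, which bind actin and integrin tails, differed between the experiments: TNS3 was at 412 and 323 CPM at D0 and at 414 and 155 CPM at D10. TNS1 and TNS3 were chosen after their values were seen, and TNS1 had 120.1 and 103 CPM at D0 against 115 and 60.2 at D10. The low values of both tensins were in D10 replicate 2, the library with the low fibroblast marker sum, and the part of that library's makeup was not tested. The exons of ILK overlap those of genes on the other strand by 78.5%, so its level is uncertain.

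The integrins were set apart by their variety. At D7 their median log2 fold change was 0.47, and 9 of 13 were higher in both experiments (all genes 31.3%). For 6 both D7 libraries lay above both D0 libraries (all genes 13.7%), and for 1, ITGA1, both lay below (all genes 15.2%). At D10, 3 were higher without overlap (all genes 15.0%). ITGA2, the alpha subunit of a collagen receptor (chr5:52989326-53094779), rose with the block. It stood at 189 and 199 CPM at D0, then 265 and 509 (D4), 577 and 704 (D7) and 849.8 and 676 (D10). All 6 later libraries were above both D0 libraries. The log2 fold changes were 1.00 ± 0.34, 1.72 ± 0.35 and 1.98 ± 0.35 (SE), the last being 3.94-fold. edgeR's adjusted p at D10 was 0.0749, with the block 0.00573 and by DESeq2 5.56e-06, and at D7 it was 0.307 and 0.0298 with the block. Without D0 replicate 2 the D10 call with the block was lost, with an adjusted p of 0.0858.

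ITGA1, which pairs with the same beta subunit and also binds collagen, was chosen after its values were seen and followed another course. It had 197 and 334 CPM at D0, then 97.2 and 171 (D4), 125 and 176 (D7) and 186 and 364 (D10). Both experiments showed lower levels with the D4 and D7 media and levels near their own D0 with the D10 medium. The log2 fold change against D0 was -0.98 ± 0.44 at D4 and 0.05 ± 0.44 at D10 (SE). The direct comparison of D10 with D4 gave 1.04 ± 0.44, with an edgeR adjusted p of 0.872, and 0.0193 with the block, where 2.55% of all genes were called. Of its exon bases, 5.63% overlap genes on the same strand, chiefly PELO.

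Per length, ITGA2 and ITGA1 were at similar levels at D0, with ratios of 1.31 and 0.814 in experiments 1 and 2. Later it was 3.72 and 4.07 (D4), 6.33 and 5.45 (D7) and 6.23 and 2.54 (D10). ITGA11, the third collagen-binding alpha subunit among the members, was at 111 and 74.4 CPM per kb at D0 and 105 and 70.9 at D10. Of the summed CPM per kb of the 3 genes, ITGA2 made up 15.6% and 19.3% at D0 and 46.9% and 45.1% at D10.

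**Figure D4:**
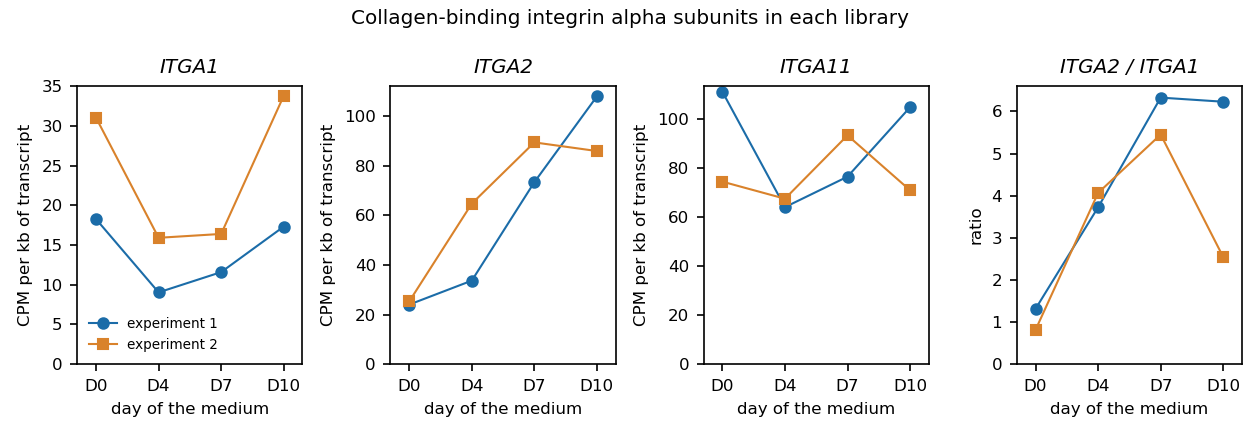
CPM per kb of transcript for ITGA1, ITGA2 and ITGA11, and the ratio of ITGA2 to ITGA1, in each library by day of the medium. Circles are experiment 1 and squares experiment 2. ITGA1 is below its D0 level at D4 and D7, ITGA2 is above its D0 level in all later libraries, ITGA11 lies between 64.0 and 111 CPM per kb, and the ratio goes from 1.31 and 0.814 at D0 to 6.23 and 2.54 at D10.

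Other alpha subunits differed between experiments. ITGA4, a subunit of a fibronectin and VCAM1 receptor, had the lowest log2 fold change of the alpha subunits at D10, -0.17 ± 0.59 (SE, edgeR adjusted p = 0.998), with 19.6 and 22.6 CPM at D0 and 26.4 and 11.2 CPM at D10. ITGA6, a laminin receptor subunit, was at 50.3 and 44.1 CPM at D0, then 97.3 and 140.2 (D4), 133 and 149 (D7) and 109.6 and 50.7 (D10). All its later libraries were above both D0 libraries, the D10 library of experiment 2 by little. At D7 its log2 fold change was 1.58 ± 0.37 (SE), with an edgeR adjusted p of 0.392, 0.0683 with the block and 0.0115 by DESeq2. ITGA8 was at 30.7 and 10.7 CPM at D0 and at 67.8 and 3.55 CPM at D10, so that the experiments went opposite ways. ITGA6 and ITGA8 were chosen after their values were seen.

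Of the beta subunits ITGB5, a partner of ITGAV, had the highest log2 fold change at D10. It stood at 407 and 249.8 CPM at D0, then 448 and 441 (D4), 440.3 and 631 (D7) and 654 and 439.7 (D10). All later libraries exceeded both D0 libraries, but the log2 fold change of 0.74 ± 0.34 (SE) had an edgeR adjusted p of 0.683, and 0.207 with the block. ITGB8, another partner of ITGAV, was at 4.52 and 12.4 CPM at D0 and 2.85 and 8.12 CPM at D10, a log2 fold change of -0.63 ± 0.95 (SE, edgeR adjusted p = 0.998). ITGB1, the common beta subunit, had 2241 and 2098 CPM at D0 against 3079 and 1566 at D10. ITGB3 shares 50.7% of its 50-base words with a readthrough gene on the same strand, and its level is uncertain.

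Taken over all 52, the median difference was smaller with the earlier media, but that of the integrins was larger at D7 (0.47) than at D10 (0.10). The median log2 fold change of the 52 was -0.13 at D4 and -0.11 at D7, against -0.38 at D10, with 0.01 and 0.00 over all genes at D4 and D7. edgeR called 0 members at D4, with 5 at an unadjusted p under 0.05 (all genes 2.96%), and 0 at D7, with 6 (all genes 4.34%), and 0% of all genes were called on either day. With the block 3 members were called at D7, CSRP2, LMCD1 and ITGA2, and 1.25% of all genes. All 3 calls were lost without D0 replicate 2 or either D7 library. Those of CSRP2 and ITGA2 were also lost without D0 replicate 1, and not all 3 stayed without D4 replicate 1. More members were called without either D10 library. DESeq2 called LMCD1 at D4 (all genes 0.287%), and LMCD1, ITGA2 and ITGA6 at D7 (all genes 0.785%). All 3 comparisons use the same D0 libraries. D10 was also set directly against D4: the median of the 52 was -0.24, 27 were lower in both experiments (all genes 28.1%), and edgeR called 0 members, with 5 at an unadjusted p under 0.05 (all genes 5.70%) and 0.00725% of all genes called. With the block CSRP2 was lower and ITGA1 higher at D10 than at D4, neither of them without either D4 library, and DESeq2 called 0 members (all genes 0.938%).

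The experiments differed from each other at many genes, the members among them. With the day held fixed, edgeR called 20 of 52 between experiments 2 and 1 at an adjusted p under 0.05. This was close to the share of all genes called, 34.8%. The 9 that were higher in experiment 2 (all genes 18.6%) included ROCK1, ROCK2, LPP, MYH10 and ITGA1, and their principal transcripts had a median length of 8292 bases. The 11 that were lower (all genes 16.2%) included MYL6, MYL9, MYL12A, MYL12B, CFL1 and PFN1, with a median of 2031 bases. Over all genes the medians were 4411 and 2356 bases. Across the 52 members, which come from the same libraries and are not independent replicates, the difference correlated with length with Pearson's r = 0.430 and a Spearman coefficient of 0.420, and over 12208 genes with 0.272 and 0.319. The part of length in the differences between media was not tested.

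**Figure D5:**
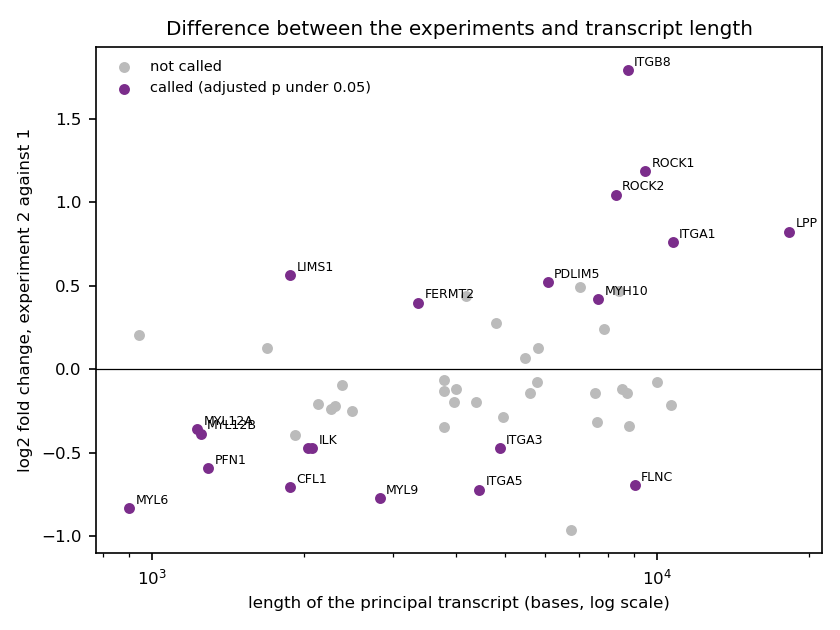
Log2 fold change of experiment 2 against experiment 1 for all 52 members, against the length of the principal transcript in bases on a log scale. Purple points are the 20 members called by edgeR and grey points the rest. Members above 0 are mostly long (ITGB8, ROCK1, ROCK2, LPP), and those furthest below 0 among the called are short (MYL6, MYL9, CFL1) or, as ITGA5 and FLNC, longer.

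Further genes of the pathway, from 8 lists, among them integrins, adaptors, LIM proteins, nucleators, myosins, bundlers and SRF-linked genes, were read from the same fit. Of 194 tested at D10, edgeR called 0 (all genes 0.290%), with 27 at an unadjusted p under 0.05 (all genes 7.94%), and with the block 8 rose (all genes 2.54%) and 14 fell (all genes 2.45%). Their median log2 fold change was -0.16, and 105 were lower in both experiments (54.1%, all genes 32.3%). The other LIM and PDZ-LIM proteins had a median of -0.30, with 17 of 23 lower in both experiments (all genes 32.3%), and with the block 6 fell (all genes 2.45%) and 1 rose (all genes 2.54%). AJUBA, a zyxin relative at cell junctions, stood at 109.2 and 113 CPM at D0 and 50.6 and 51.3 CPM at D10, with an edgeR adjusted p of 0.0693 and 0.00309 with the block. LIMS2, a close relative of LIMS1, had 78.9 and 66.0 CPM at D0 and 26.8 and 27.4 at D10 (edgeR adjusted p = 0.0749, with the block 0.00271).

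Formins moved to both sides with the block. DAAM2 and FMN2 fell, DAAM2 from 62.3 and 66.3 CPM at D0 to 23.5 and 21.8 at D10, and DIAPH2, FMNL1 and FMNL3 rose, FMNL3 from 32.3 and 29.8 to 72.5 and 55.1 CPM. In the edgeR fit with the block the adjusted p was 0.0026 for DAAM2 and 0.0169 for FMNL3, and without it 0.0597 and 0.129. ANKRD1, an SRF- and YAP-linked gene, had the lowest log2 fold change of these lists, with 12.1 and 10.3 CPM at D0 and 2.14 and 1.74 at D10 (log2 fold change -2.53 ± 0.39, SE, edgeR adjusted p = 0.055, with the block 0.00182). The highest at D10 was 2.06, for the integrin ITGA10, which edgeR did not call at D10 with or without the block. DESeq2 did call it higher at D10 (all genes 2.17%). At D7 its log2 fold change was 3.43, and edgeR called it with the block (all genes 1.25%) but not without. The smooth muscle contractile genes, a separate list of 12 tested, had a median of -1.46. Without the block edgeR called ACTA2 and TNNT2 lower (0.290% of all genes called), and with it 8 genes (all genes 2.45% lower).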

How the data were processed

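The deposited table holds whole-number read counts for each gene in 8 libraries, made by the authors from poly(A)-selected RNA with a stranded kit. Per the labels and the submitters' processing notes, STAR 2.5, DESeq2 and GRCh38 were used. The counting program and its strand setting are not given in the sources used here. The 8 columns of normalized values were not used, and a header reading DO was taken as D0 replicate 1.

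Genes were filtered with edgeR's filterByExpr and scaled by TMM. All 8 libraries entered one fit by group with edgeR 4.0.16 under R 4.3.3 (glmQLFit, then glmQLFTest), and p-values were adjusted over all genes tested and called at 0.05. DESeq2 1.42.0 was an alternative. CPM uses the TMM library size, and log2 changes within an experiment use a prior count of 2. Replicate numbers pair the libraries: the labels describe 2 independent experiments, and deviations from group means correlated across genes with r from 0.418 to 0.722 in all 6 pairs of groups. The block was therefore given where it changes a call. The common dispersion was 0.0792 without and 0.0242 with it. The fits were tested on simulated counts.

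Positions, lengths of the longest APPRIS principal transcript, exon overlaps and shared 50-base words come from GENCODE 29, which holds 99.6% of the identifiers. Promoters come from RefSeq (GRCh38.p14). ACTB, MYL9, ITGA3, ITGB3 and PARVA were not matched. The members and lists were chosen with earlier results of these data known. Named with values were members called in any comparison without the block, members called at D10 with it, the highest and lowest member of each role at D10, and the 3 with the highest level per length. The results of 1 role with 4 members are not reported here, though its members enter the counts over all 52. Others named were chosen after their values were seen. Without the block, p-values measure only the spread between these 2 experiments. With it, they measure the spread that remains once the difference between the experiments is taken out. Alternatives were the size factors of DESeq2, total counts alone, dropping the filter, a minimum of 10 counts per library, a fit of just the groups compared, the block, a threshold of 0.01 and leaving out single libraries. Figures were drawn with Python 3.11.15 and matplotlib.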

Additional observations from a re-analysis of the deposited data

Results flagged for a closer look

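Differences between the effects of the D10 and D4 media, both measured against D0, were flagged for 2 members by the direct comparison of D10 with D4 in edgeR with the replicate block. The log2 difference was -1.05 for CSRP2 (adjusted p = 0.0264), lower in both experiments. For ITGA1 it was 1.02 (adjusted p = 0.0193), higher in both experiments. Neither was called when either D4 library was left out, and without the block the adjusted p was 0.344 and 0.872.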

How the results depend on the processing

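With a filter on low counts and without the replicate block, edgeR called 0 members on any day. The block gave 1 at D4, 3 at D7, 6 at D10 and 2 for D10 against D4. In the same order DESeq2 gave 1, 3, 4 and 0, and edgeR with no filter on low counts 1, 3, 4 and 0. DESeq2 with the block, added after seeing the data, gave 5, 7, 12 and 11. The number called over all genes moved as well. At D4 and D7 it was 38 and 172 with the block, 44 and 112 by DESeq2, 21 and 93 with no filter, and 213 and 351 by DESeq2 with the block. At D10 it was 688 with the block and 379 by DESeq2, and for D10 against D4 352 and 149. With the block and 1 library left out, also added after seeing the data, the counts ranged from 0 (without any D0, D4 or D7 library) to 5 at D4, 0 (without D0 replicate 2, D7 replicate 1 or D7 replicate 2) to 8 at D7, 2 (without D0 replicate 2) to 18 (without D10 replicate 1, and 13 without D10 replicate 2) at D10, and 0 (without either D4 library) to 15 (without D10 replicate 1) for D10 against D4. For the experiments, 20 calls became 11 at an adjusted p under 0.01, and 10 to 26 when 1 library was left out, 10 without D0 replicate 2 and 11 without D0 replicate 1. Of the other pathway genes the block called 22 and DESeq2 11. The medians of the 52 kept their sign: leaving out 1 library gave -0.20 to -0.051 at D4, -0.25 (without D0 replicate 2) to -0.068 at D7, -0.47 to -0.27 at D10 and -0.46 (without D10 replicate 1) to -0.17 for D10 against D4. Log2 fold changes at D10 turned sign when 1 library was left out for ROCK1 (-0.38 to 0.88), LPP (-0.30 to 0.38), LIMS1 (-0.28 to 0.24), ITGA4 (-0.90 to 0.32) and ITGB8 (-1.57 to 0.27), and for LIMS1 also with total counts only (0.032), no filter (0.00040) and the compared groups only (0.0061). The cause was not tested. With 2 libraries a group, the spread between the experiments limits what could be called.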
